A study of Mus musculus with 28 samples.

Results

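The 8 brain neural stem cell (NSC) libraries of the series come from 3 experiments and were chosen by their labels alone, 8 of 28 libraries in 11 groups. They are the groups Brain-NSC (n = 2), Wnt1Cre-mTmG brain NSCs (n = 3) and Sox2-GFP brain NSCs (n = 3), which were compared in pairs. In each experiment they are the central reference for peripheral NSCs (pNSCs), cells with NSC features isolated from lung, tail or dorsal root ganglia (DRG). Cells of whole brain, from adult mice of about 4 to 6 weeks or from pups of about postnatal day 1 to 5, had been grown on gelatin with EGF and bFGF over several passages, and polyA RNA was sequenced; which of these ages a given brain group had is not given in the sources used here. Brain-NSC carry no reporter in their label and were grouped by the study with its Nes-GFP mice, in which GFP marks Nestin-expressing cells. In Wnt1Cre-mTmG mice, Cre expressed from Wnt1 switches neural crest cells and their descendants from Tomato to GFP. By the paper, Wnt1 tracing labels midbrain cells as well. In Sox2-GFP mice, a knock-in line, GFP reports *Sox2*. The labels give C57BL/6 for all samples, whereas the methods describe CD1 or CD1 x C3H mice crossed with the reporter lines, and mice of both sexes were used. Each experiment had its own mice and its own cultures. Line, reporter, genetic background, age and batch therefore cannot be told apart in any comparison between the 3 groups. Sex is confounded with them in the comparisons with Brain-NSC, but not, by the sex-linked transcripts below, between Wnt1Cre-mTmG and Sox2-GFP brain NSCs.

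NSCs in culture divide in response to EGF and FGF, keep *Sox2*, *Nes* and *Olig2* expressed and can form neurons, astrocytes and oligodendrocytes. They also carry a record of their place of origin, since transcription factors such as *Emx2* in the dorsal forebrain, *Otx2* in the forebrain and midbrain and the *Hox* genes in the hindbrain and spinal cord are set in the embryo and may persist through passages. Cells taken from a whole brain can therefore differ in region, in the share of glial progenitors and in growth state while having the same name.

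Library totals were 20079812 and 20697929 counts in Brain-NSC, 17026140 to 22637031 in Sox2-GFP brain NSCs and 9846360 to 11315870 in Wnt1Cre-mTmG brain NSCs, so that the last group was the most shallowly sequenced. Levels are given as counts scaled to a common library total (cpm) after TMM scaling, and 13811 genes were tested with edgeR. A gene was called when its Benjamini-Hochberg adjusted p was under 0.05 and its log2 fold change at least 1 in size. Between replicates the chi-square per gene, which is 1 under counting noise alone, was 1.14 to 1.39 in Wnt1Cre-mTmG and Sox2-GFP brain NSCs and 2.87 between the Brain-NSC libraries. The study describes its replicates as biological, but the labels do not say whether they were separate cultures, so that the p-values measure the spread between these libraries, which may be technical.

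The 3 groups differed in many genes. Between Wnt1Cre-mTmG brain NSCs and Brain-NSC 1931 genes were called (14.0%), 1430 of them higher (10.4%) and 501 lower (3.63%) in Wnt1Cre-mTmG brain NSCs. Between Sox2-GFP brain NSCs and Brain-NSC the number was 2898 (21.0%), with 1825 higher (13.2%) and 1073 lower (7.77%) in Sox2-GFP brain NSCs. Wnt1Cre-mTmG brain NSCs differed from Sox2-GFP brain NSCs in 2400 genes (17.4%), 1209 higher (8.75%) and 1191 lower (8.62%) in the former. An F test over the 3 groups called 3929 genes (28.4%). Pearson's r between group means, across 17393 genes, which are not independent replicates, was 0.966 for Wnt1Cre-mTmG brain NSCs and Brain-NSC, 0.959 for Sox2-GFP brain NSCs and Brain-NSC and 0.969 for Wnt1Cre-mTmG and Sox2-GFP brain NSCs.

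Of 21 genes on a list of NSC core genes, 1, 3 and 5 were called in these 3 comparisons, in the order given (4.76%, 14.3% and 23.8%). The shares over all tested genes were 14.0%, 21.0% and 17.4%, so that the list lay under them against Brain-NSC but not between Wnt1Cre-mTmG and Sox2-GFP brain NSCs. *Fabp7*, a fatty acid binding protein of radial glia, lay between 2640 and 2857 cpm in all 8 libraries. *Olig2*, a bHLH factor of ventral progenitors and oligodendrocyte precursors, had 1121 ± 13.3 cpm (SD, n = 2), 1151 ± 21.2 (n = 3) and 925.5 ± 12.6 (n = 3). Brain-NSC and Wnt1Cre-mTmG brain NSCs were also close in *Sox2*, which lies inside *Sox2ot* on the same strand, at 337 ± 5.27 and 326.5 ± 5.08 cpm, while Sox2-GFP brain NSCs had 594 ± 14.6, a log2 difference of 0.82 from Brain-NSC that is below the limit for a call. The Sox2-GFP line is a knock-in, and its part in the *Sox2* counts was not tested. *Nes*, the intermediate filament gene Nestin, had 1431 and 1430 cpm in Brain-NSC, 1752, 1743 and 1715 in Wnt1Cre-mTmG brain NSCs and 616, 611 and 609 in Sox2-GFP brain NSCs, the lowest group without overlap (log2 fold change -1.22 ± 0.02 (SE) against Brain-NSC, adjusted p = 6.28e-54). The Notch target *Hes5* ran the other way, with 43.5 to 46.5, 21.8 to 24.3 and 115 to 120 cpm. *Prom1*, which encodes the surface protein CD133, had 4 counts in both Brain-NSC libraries together, against 4.24 to 4.40 cpm in Wnt1Cre-mTmG and 10.1 to 11.7 cpm in Sox2-GFP brain NSCs.

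The 3 groups had different regional codes. Of 16 forebrain genes tested, 5 were higher and 1 lower in Wnt1Cre-mTmG brain NSCs than in Brain-NSC (median log2 fold change 0.26), and 3 were higher and 8 lower in Sox2-GFP brain NSCs than in Brain-NSC (median -1.04, or -1.32 with genes at 0 placed at their bound). Between Wnt1Cre-mTmG and Sox2-GFP brain NSCs 11 were higher and 2 lower in the former, a median of 2.29. The called shares of the list were 37.5%, 68.8% and 81.2%, against 14.0%, 21.0% and 17.4% of all tested genes. Over all tested genes the medians were 0.000354, 0.012 and 0.00869 in the 3 comparisons. *Six3*, a homeobox gene of the anterior forebrain and eye field (GRCm38 chromosome 17, 85613608 to 85629302, with *Six3os1* on the opposite strand), had 1.75 and 1.39 cpm in Brain-NSC, 62.8, 64.8 and 66.1 in Wnt1Cre-mTmG brain NSCs and 9.44, 10.8 and 10.4 in Sox2-GFP brain NSCs. No 2 groups overlapped, and the log2 fold change of Wnt1Cre-mTmG brain NSCs against Brain-NSC was 5.36 ± 0.11 (adjusted p = 9.10e-47). *Emx2*, a factor of the dorsal telencephalon, was at 9.81 and 10.2 cpm, then at 34.7, 34.6 and 33.8, and then at 6.22, 6.07 and 5.37 in the same order of groups. *Lhx2*, a LIM factor of cortical and eye progenitors, had 37.6 and 36.9, then 64.6, 69.6 and 63.4, and then 8.50, 9.02 and 9.51 cpm. Wnt1Cre-mTmG brain NSCs were thus highest and Sox2-GFP brain NSCs lowest in *Emx2* and *Lhx2*, without overlap, although the log2 fold change of *Lhx2* (0.82) between Wnt1Cre-mTmG brain NSCs and Brain-NSC did not reach the limit for a call.

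**Figure D1:**
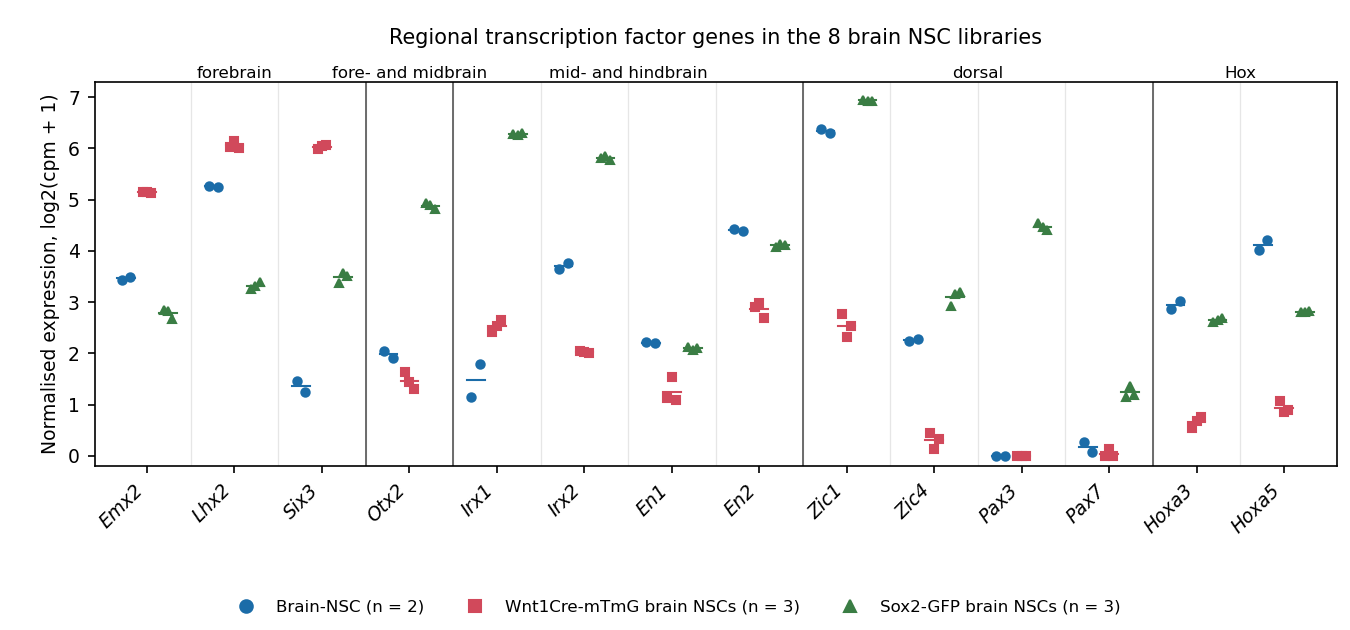
Normalised expression, log2(cpm + 1), of 14 regional transcription factor genes in each of the 8 brain NSC libraries; points are libraries, short lines group means. *Six3* is highest in Wnt1Cre-mTmG brain NSCs (62.8 to 66.1 cpm), *Otx2*, *Irx1* and *Pax3* in Sox2-GFP brain NSCs, and *Zic1* and the 2 *Hox* genes are lowest in Wnt1Cre-mTmG brain NSCs.

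Sox2-GFP brain NSCs had the highest levels of *Otx2*, *Irx1*, *Irx2* and *Pax3*. *Otx2* (chromosome 14, 48657677 to 48673819) stood at 29.4, 28.9 and 27.1 cpm in them, at 3.13 and 2.77 in Brain-NSC and at 2.12, 1.70 and 1.48 in Wnt1Cre-mTmG brain NSCs (log2 fold change 3.27 ± 0.11 against Brain-NSC, adjusted p = 4.66e-36). The Iroquois gene *Irx1* had 76.8, 75.5 and 78.0 cpm against 1.23 and 2.48 in Brain-NSC and 4.33, 4.80 and 5.32 in Wnt1Cre-mTmG brain NSCs. Its neighbour *Irx2* had 55.0, 57.0 and 53.6 cpm against 11.6 and 12.6, and 3.13, 3.10 and 3.05. *Pax3*, a paired box factor of the dorsal neural tube and neural crest (chromosome 1, 78101267 to 78197134), had 22.2, 21.2 and 20.1 cpm in Sox2-GFP brain NSCs and no counts in any of the other 5 libraries, at least 140-fold higher than in Brain-NSC and at least 75.8-fold higher than in Wnt1Cre-mTmG brain NSCs when the floor is 3 counts per library. Among 14 tested genes of the midbrain and hindbrain list, 8 were higher and 3 lower in Sox2-GFP brain NSCs than in Brain-NSC (median 1.09), and 3 were higher and 5 lower in Wnt1Cre-mTmG brain NSCs than in Brain-NSC (median -0.34). These shares were 78.6% and 57.1%, against 21.0% and 14.0% of all tested genes.

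Wnt1Cre-mTmG brain NSCs had the lowest levels of the *Zic* genes. *Zic1*, a zinc finger factor of the dorsal neural tube and cerebellum (chromosome 9, 91358058 to 91365810, with *Zic4* partly antisense to it), had 5.80, 4.00 and 4.79 cpm in them, 82.1 and 78.0 in Brain-NSC and 123, 120 and 121 in Sox2-GFP brain NSCs. The log2 fold change was -4.03 ± 0.08 against Brain-NSC (adjusted p = 1.16e-47) and -4.63 ± 0.07 against Sox2-GFP brain NSCs. All 5 *Zic* genes were called lower in Wnt1Cre-mTmG brain NSCs than in Brain-NSC. They were the 5 lower genes among 18 tested of the dorsoventral list, where 5 others were higher (*Gsx1*, *Nkx2-2*, *Nkx6-1*, *Nkx6-2* and *Hhip*, median of the list -0.23). In Sox2-GFP brain NSCs against Brain-NSC 7 of the 18 were higher, namely *Pax3*, *Pax7* and *Msx1* of the dorsal neural tube and *Nkx2-2*, *Nkx6-1*, *Nkx6-2* and *Hhip* of ventral identity and hedgehog signalling, and 4 were lower (median 0.62). Against Brain-NSC, 55.6% of this list was called in Wnt1Cre-mTmG and 61.1% in Sox2-GFP brain NSCs. The shares of all tested genes were 14.0% and 21.0%. The engrailed genes of the midbrain-hindbrain boundary, *En1* and *En2*, were also lowest in Wnt1Cre-mTmG brain NSCs, *En2* with 6.54, 6.91 and 5.49 cpm against 20.2 ± 0.35 (SD, n = 2) in Brain-NSC and 15.9, 16.6 and 16.2 in Sox2-GFP brain NSCs.

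Of 39 *Hox* genes, which give position along the hindbrain and spinal cord, 8 were tested. Genes of the A cluster, among them *Hoxa2*, *Hoxa3*, *Hoxa4*, *Hoxa5* and *Hoxa7*, were lower in Wnt1Cre-mTmG brain NSCs than in either other group. *Hoxa5* (chromosome 6, 52201754 to 52204587) had 15.3 and 17.7 cpm in Brain-NSC, 1.11, 0.80 and 0.87 in Wnt1Cre-mTmG brain NSCs and 5.98, 6.03 and 6.07 in Sox2-GFP brain NSCs. *Hoxa3*, whose annotated span holds *Hoxa4* and *Hoxa5*, had 6.32 and 7.13, then 0.46, 0.60 and 0.70, and then 5.16, 5.28 and 5.49 cpm, so that Brain-NSC and Sox2-GFP brain NSCs were close in it (log2 fold change -0.34, adjusted p = 0.0147, not called). *Hoxb3* and *Hoxb4* had no counts in Brain-NSC and had at most 1.06 cpm in any library of the other groups. The summed level of the 39 genes was 37.5 to 40.8 cpm in Brain-NSC, 3.96 to 4.62 in Wnt1Cre-mTmG and 23.8 to 25.2 in Sox2-GFP brain NSCs. At equal depth, with every library thinned to 9846360 counts, the *Hox* genes called between Sox2-GFP brain NSCs and Brain-NSC fell from 5 to 2. At full depth the 5 were 62.5% of the 8 tested, against 21.0% of all tested genes.

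Several astroglial genes were lowest in Brain-NSC and highest in Sox2-GFP brain NSCs. Of 36 tested, 11 were higher and 4 lower in Wnt1Cre-mTmG brain NSCs than in Brain-NSC (median 0.21), and 15 were higher and 1 lower in Sox2-GFP brain NSCs than in Brain-NSC (median 0.71). In these comparisons 41.7% and 44.4% of the list were called, against 14.0% and 21.0% of all tested genes. In RNA from a whole culture, fewer cells of a type and less RNA per cell cannot be told apart. *Gfap*, the intermediate filament of astrocytes and adult NSCs (chromosome 11, 102887336 to 102900912, overlapped by *Gm26668* on the opposite strand), had 3.75 and 4.60 cpm in Brain-NSC, 46.4, 51.8 and 45.5 in Wnt1Cre-mTmG brain NSCs and 112, 108 and 110 in Sox2-GFP brain NSCs. The water channel gene *Aqp4* had 7.24 and 4.70, then 117, 119 and 116, and then 241, 250 and 247 cpm. Both rose in steps without overlap, by log2 fold changes of 3.51 ± 0.09 and 4.72 ± 0.07 for *Gfap* and 4.30 ± 0.07 and 5.37 ± 0.06 for *Aqp4* against Brain-NSC. *Apoe*, the lipid carrier that astrocytes secrete (chromosome 7, 19696109 to 19699188), was at 44.8 ± 0.25, then at 219.7 ± 10.2, and then at 1914 to 1999 cpm, a log2 fold change of 5.46 ± 0.03 between Sox2-GFP brain NSCs and Brain-NSC (adjusted p = 5.84e-77). *Ndrg2*, a differentiation gene of astrocytes, had 14.4 and 12.9, then 93.3, 87.9 and 90.8, and then 944, 934 and 924 cpm.

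The list did not move as one. *Aldh1l1*, a folate enzyme used as a pan-astrocyte marker, was highest in Wnt1Cre-mTmG brain NSCs, at 997.5 ± 15.5 cpm against 80.1 ± 2.46 in Brain-NSC and 508 ± 2.42 in Sox2-GFP brain NSCs. The glutamate transporter gene *Slc1a3*, shared by radial glia and astrocytes, was highest in Brain-NSC, at 2354 ± 66.7 cpm against 1465 ± 3.91 and 1974 ± 12.3. The 4 genes lower in Wnt1Cre-mTmG brain NSCs than in Brain-NSC were *S100b*, *Aldoc*, *Gjb6* and *Glul*, and the 1 lower in Sox2-GFP brain NSCs was the metallothionein gene *Mt3*.

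**Figure D2:**
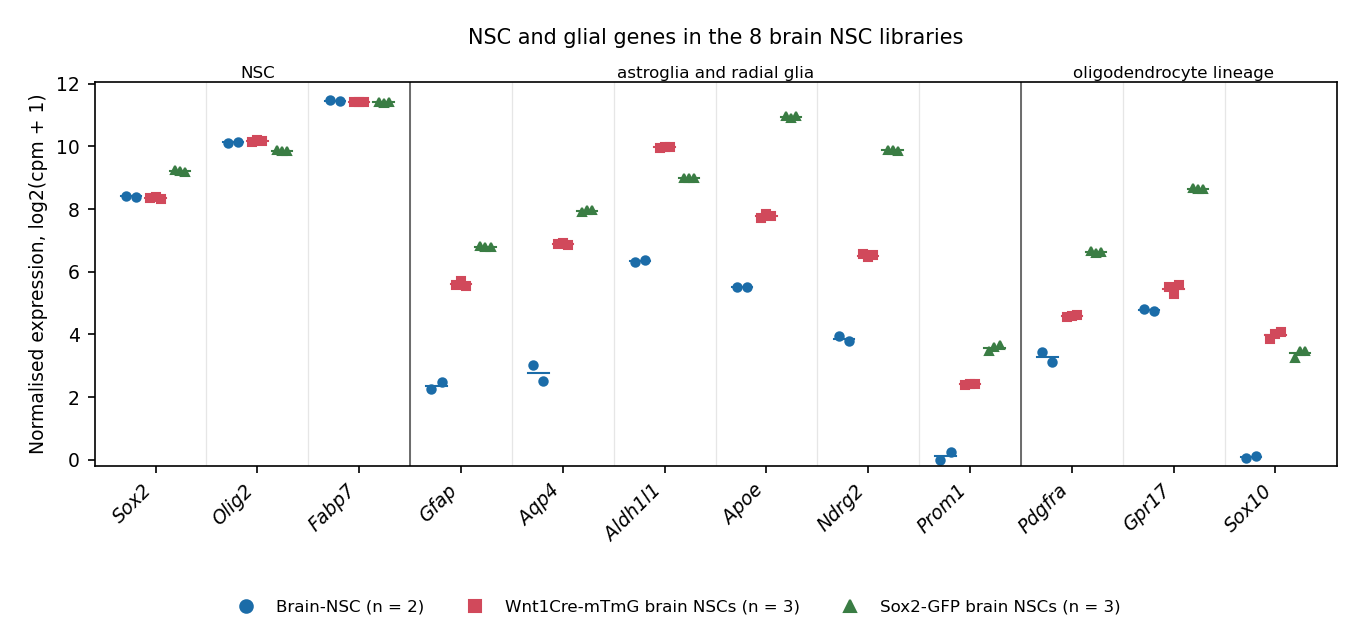
Normalised expression, log2(cpm + 1), of 3 NSC genes, 6 genes of astroglia and radial glia and 3 genes of the oligodendrocyte lineage in each of the 8 libraries; points are libraries, short lines group means. *Olig2* and *Fabp7* lie close together in the 3 groups, whereas *Gfap* runs from 3.75 to 4.60 cpm in Brain-NSC up to 108 to 112 cpm in Sox2-GFP brain NSCs.

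Of 27 tested genes of the oligodendrocyte lineage, 18 were higher and 2 lower in Sox2-GFP brain NSCs than in Brain-NSC (median 1.58). In Wnt1Cre-mTmG brain NSCs 9 were higher and 1 lower than in Brain-NSC (median 0.69), and 1 was higher and 13 lower than in Sox2-GFP brain NSCs (median -0.99). As shares these were 74.1%, 37.0% and 51.9% in the order named, against 21.0%, 14.0% and 17.4% of all tested genes. *Pdgfra*, the growth factor receptor of oligodendrocyte precursors (chromosome 5, 75152292 to 75198215), had 9.86 and 7.62 cpm in Brain-NSC, 22.7, 23.2 and 23.6 in Wnt1Cre-mTmG brain NSCs and 101, 95.0 and 97.1 in Sox2-GFP brain NSCs (log2 fold change 3.48 ± 0.07 against Brain-NSC, adjusted p = 1.77e-49). *Gpr17*, a receptor of committed precursors, had 27.1 and 25.9, then 44.9, 38.2 and 46.5, and then 402, 399 and 400 cpm. *Sox10*, the factor shared by oligodendrocyte precursors and neural crest (chromosome 15, 79154908 to 79165240), had 1 and 2 counts in the Brain-NSC libraries but 13.6, 15.2 and 15.9 cpm in Wnt1Cre-mTmG and 8.50, 10.2 and 10.2 cpm in Sox2-GFP brain NSCs. The crest factor gene *Foxd3* had 1 count in all 8 libraries together, and the crest receptor gene *Ngfr* was under 1 cpm in each library. Other genes of the 14 on the neural crest and Schwann cell list, which also holds *Sox10*, were expressed. The list summed to 122 to 127, 156 to 160 and 214 to 218 cpm in the same order of groups. Of 9 tested, 3 were higher and 0 lower in Wnt1Cre-mTmG brain NSCs than in Brain-NSC, and 4 were higher and 1 lower in Sox2-GFP brain NSCs. That made 33.3% and 55.6%, against 14.0% and 21.0% of all tested genes.

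Markers of other cell types had low summed levels, but those of fibroblasts and of endothelium and pericytes differed between the groups. The summed level of 14 microglia genes was 1.52 to 4.10 cpm over the 8 libraries, with 13 of the 14 genes under 1 cpm on average in each group. That of 14 endothelial and pericyte genes was 11.7 to 12.03 cpm in Brain-NSC, 24.0 to 26.4 in Wnt1Cre-mTmG and 5.14 to 5.54 in Sox2-GFP brain NSCs, and *Cldn5* was under 1 cpm in each group. For 14 fibroblast genes the sum was at most 46.4, 127 to 130 and 82.0 to 95.1 cpm in the same order, 10 of 11 tested being higher in Wnt1Cre-mTmG brain NSCs than in Brain-NSC. This was 90.9%, against 14.0% of all tested genes, with a median of 3.73. On average 11, 4 and 8 of the 14 were under 1 cpm. *Col1a1*, which fibroblasts express at very high levels, was at 2.61 to 3.13 cpm in Wnt1Cre-mTmG brain NSCs and under 0.5 cpm elsewhere. Most of the fibroblast sum, and of the endothelial and pericyte sum, thus came from genes other than *Col1a1* and *Cldn5*. The fibroblast sum was lowest in Brain-NSC, as were *Gfap*, *Aqp4*, *Apoe* and *Ndrg2* but not all astroglial genes. It was highest in Wnt1Cre-mTmG brain NSCs, whereas these genes were highest in Sox2-GFP brain NSCs. The part of fibroblasts in the astroglial differences was not tested.

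Of 30 proliferation genes, 14 were lower and 1 higher in Sox2-GFP brain NSCs than in Brain-NSC (median -0.92), and all 30 had a positive log2 fold change of Wnt1Cre-mTmG over Sox2-GFP brain NSCs, 14 of them called. Between Wnt1Cre-mTmG brain NSCs and Brain-NSC 2 were called (6.67%, against 14.0% of all tested genes, median -0.05). *Ccnd1*, the cyclin that growth factors induce for entry into the cell cycle (chromosome 7, 144929931 to 144939925), had 726 and 740 cpm in Brain-NSC, 1480, 1514 and 1492 in Wnt1Cre-mTmG brain NSCs and 176, 183 and 174 in Sox2-GFP brain NSCs. *Mcm3*, a subunit of the replicative helicase, had 258 and 271, then 156, 169 and 164, and then 57.5, 58.4 and 61.4 cpm (log2 fold change -2.16 ± 0.03 of Sox2-GFP brain NSCs against Brain-NSC, adjusted p = 4.32e-54). The mitotic marker *Mki67* was less far apart, at 901 ± 17.8, 746 ± 15.9 and 418.5 ± 5.16 cpm.

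EGF and FGF act through the MAPK cascade, which switches on its own feedback genes. *Dusp6*, a phosphatase of ERK (chromosome 10, 99263231 to 99267489), had 417 and 417 cpm in Brain-NSC, 350, 338 and 343 in Wnt1Cre-mTmG brain NSCs and 81.0, 81.0 and 82.7 in Sox2-GFP brain NSCs, a log2 fold change of -2.35 ± 0.03 against Brain-NSC (adjusted p = 8.17e-60). *Spry4* and the immediate early gene *Egr1* were also lower in Sox2-GFP brain NSCs, by -2.15 ± 0.03 and -2.02 ± 0.03. The whole list of EGF, FGF and MAPK genes had 5 of 33 called lower and 2 higher in Sox2-GFP brain NSCs than in Brain-NSC (median -0.35), close to the share over all genes, and 9 called higher and 4 lower in Wnt1Cre-mTmG than in Sox2-GFP brain NSCs. Its shares were 21.2% and 39.4%, against 21.0% and 17.4% of all tested genes.

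Cholesterol synthesis genes fell together in Sox2-GFP brain NSCs: 19 of 23 tested were lower than in Brain-NSC and none higher (median -1.42), and 12 were lower than in Wnt1Cre-mTmG brain NSCs and none higher. These were 82.6% and 52.2% of the list, against 21.0% and 17.4% of all tested genes. By the edgeR test none of the 23 was called between Wnt1Cre-mTmG brain NSCs and Brain-NSC, nor by DESeq2, because no log2 fold change reached 1 in size. Still, 22 were negative (median -0.44) and each of these had an adjusted p under 0.05. Fitting all 28 libraries, or leaving out the filter, gave 1 call. *Insig1*, a sterol sensor of the endoplasmic reticulum (chromosome 5, 28071363 to 28078662), had 270.6 and 267.5 cpm in Brain-NSC, 215.1, 215.7 and 209.6 in Wnt1Cre-mTmG brain NSCs and 74.4, 71.1 and 75.7 in Sox2-GFP brain NSCs. *Hmgcs1*, the synthase at the head of the pathway, had 1706 and 1638, then 1420, 1417 and 1379, and then 659, 660.2 and 665 cpm. Both fell in 2 steps without overlap, and the larger step led to Sox2-GFP brain NSCs (log2 fold change -1.87 ± 0.03 for *Insig1* and -1.34 ± 0.02 for *Hmgcs1* against Brain-NSC). *Srebf2*, the sterol-regulated factor that drives these genes, was at 626 ± 6.84, 496.5 ± 8.06 and 371 ± 3.07 cpm and was not called.

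The amino acid response is the programme that the factor ATF4 turns on when amino acids are scarce. A single list joined its genes with those of the unfolded protein response. In Sox2-GFP brain NSCs 14 of its 24 genes were higher and 1 lower than in Brain-NSC (median 1.30). There, 13 were higher and 1 lower than in Wnt1Cre-mTmG brain NSCs. These were 62.5% and 58.3% of the list, against 21.0% and 17.4% of all tested genes. *Asns*, asparagine synthetase (chromosome 6, 7675169 to 7693254), had 323, 318 and 326 cpm in Sox2-GFP brain NSCs, 64.6 and 62.1 in Brain-NSC and 48.1, 47.5 and 45.7 in Wnt1Cre-mTmG brain NSCs. *Chac1*, which degrades glutathione, had 51.8, 51.3 and 49.1 cpm against 1.80 and 1.53, and 1.66, 1.30 and 1.57 (log2 fold change 4.92 ± 0.11 against Brain-NSC, adjusted p = 5.14e-46). The amino acid transporter gene *Slc7a5* had 1024 to 1045 cpm against 210 and 212, and 99.0 to 102. *Atf4* itself was at 163 ± 3.64, 134 ± 0.66 and 259 ± 2.63 cpm in the order Brain-NSC, Wnt1Cre-mTmG and Sox2-GFP brain NSCs and was not called. The endoplasmic reticulum chaperone gene *Hspa5*, a marker of the unfolded protein response proper, did not move with them, at 686 ± 5.46, 720 ± 6.40 and 392 ± 6.53 cpm.

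**Figure D3:**
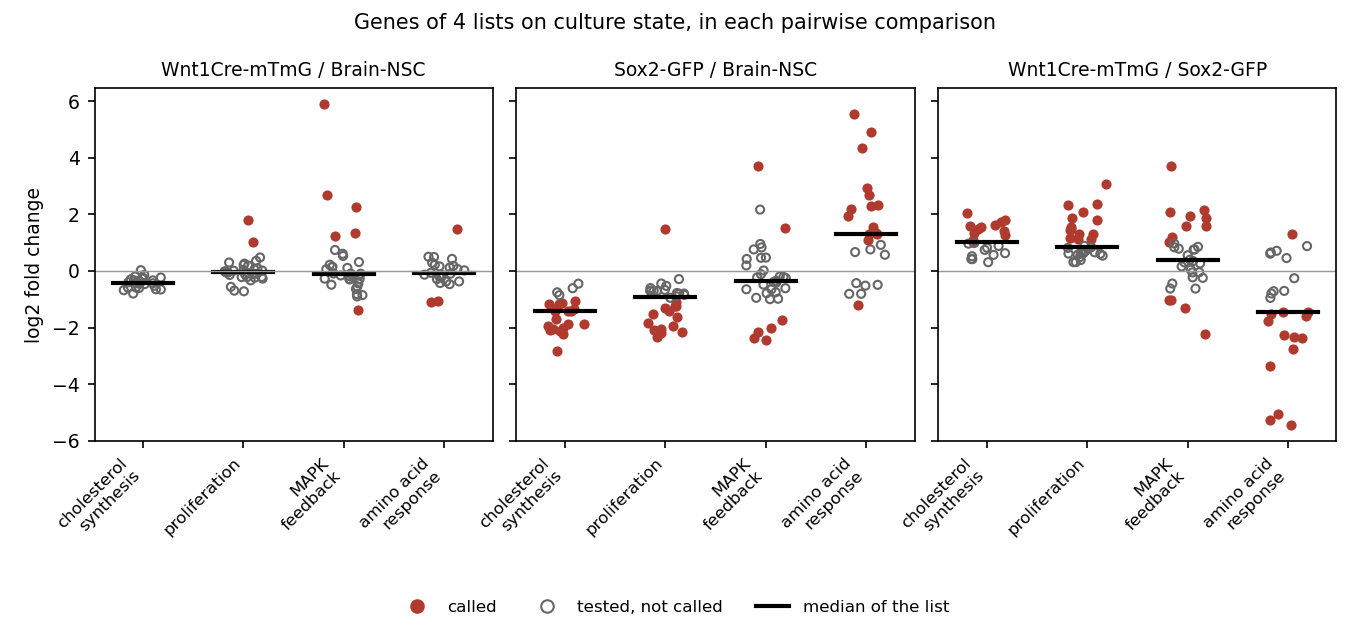
Log2 fold change (vertical axis) of each tested gene of 4 lists in the 3 pairwise comparisons; filled points passed the test with a log2 fold change of at least 1, and thick lines are list medians. In Sox2-GFP against Brain-NSC the medians are -1.42 for cholesterol synthesis, -0.92 for proliferation, -0.35 for EGF, FGF and MAPK genes and 1.30 for the amino acid and unfolded protein response.

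The promoters of the genes on the cholesterol and amino acid lists were searched for the element known from each pathway, in the 250 bases before the start site in RefSeq (GRCm38.p6), on both strands. The C/EBP-ATF response element, spelled TGATGNAA, was in 7 of 23 listed genes with a promoter sequence (30.4%), against 3.91% of all 27025 genes with one. The 7 genes are *Atf3*, *Asns*, *Chac1*, *Herpud1*, *Nupr1*, *Slc7a11* and *Vldlr*, and all of them were among the 14 called higher in Sox2-GFP brain NSCs than in Brain-NSC. The sterol regulatory element, spelled TCACNCCAC, was in 1 of 16 cholesterol genes with a sequence, *Hmgcs1* (1672 ± 47.9 cpm in Brain-NSC and 662 ± 3.26 in Sox2-GFP brain NSCs), against 1.22% of all genes. A match to these letters is not evidence of binding, and the lists were not tested for enrichment. Each list was made of genes of the pathway from which its element is known, with earlier results of these data known. A high share of matches was thus to be foreseen, and a part of the elements in the changes was not tested. The matches of 3 amino acid response genes and of *Hmgcs1* are shown, 5′ to 3′ on the gene's strand, with the element in capitals; TTGCATCA, as printed in 2 of the genes, is the first element on the other strand.
Asns (chr6:7693210-7693292, minus strand): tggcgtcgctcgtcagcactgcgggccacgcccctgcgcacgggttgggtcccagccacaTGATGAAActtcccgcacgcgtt
Chac1 (chr2:119350992-119351116, plus strand): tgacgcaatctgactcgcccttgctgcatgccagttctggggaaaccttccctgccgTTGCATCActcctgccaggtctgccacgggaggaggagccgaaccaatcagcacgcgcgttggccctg
Slc7a11 (chr3:50443614-50443739, minus strand): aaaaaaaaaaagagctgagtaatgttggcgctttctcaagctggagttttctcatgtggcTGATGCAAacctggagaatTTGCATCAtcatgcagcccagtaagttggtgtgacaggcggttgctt
Hmgcs1 (chr13:119690154-119690282, plus strand): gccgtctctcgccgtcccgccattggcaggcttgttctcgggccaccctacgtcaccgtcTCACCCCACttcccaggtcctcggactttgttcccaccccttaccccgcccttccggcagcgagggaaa
The element in *Asns* begins 23 bases before the start site, that in *Chac1* begins 193 bases before it, and *Slc7a11* has 2 of them, 66 and 47 bases before it, 1 on each strand. *Slc7a11*, the cystine transporter gene, had 16.4 and 13.2 cpm in Brain-NSC, 40.1, 44.2 and 39.9 in Wnt1Cre-mTmG brain NSCs and 108, 114 and 114 in Sox2-GFP brain NSCs.

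Cell cycle inhibitors were not low throughout in the group with the lowest proliferation genes. *Cdkn2a*, the p16 and Arf gene that accumulates with passages (chromosome 4, 89274471 to 89294653), had 35.6 and 33.2 cpm in Brain-NSC, 96.8, 101 and 95.3 in Wnt1Cre-mTmG brain NSCs and 40.6, 34.1 and 32.5 in Sox2-GFP brain NSCs, so that the first and last overlapped. Its neighbour *Cdkn2b*, for p15, had 2.77 and 3.12, then 23.5, 22.6 and 25.4, and then 17.0, 16.9 and 18.4 cpm. Of 26 genes of cell cycle inhibition and p53, 3 were higher and none lower in Wnt1Cre-mTmG brain NSCs than in Brain-NSC, a share (11.5%) under that of all tested genes (14.0%). In Sox2-GFP brain NSCs 3 were higher and 6 lower than in Brain-NSC (34.6%, against 21.0% of all tested genes, median -0.42).

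Sex-linked transcripts differed between the groups as well. *Xist*, the non-coding RNA of the inactive X chromosome (positions 103460366 to 103483254 of the X chromosome, with *Tsix* running antisense), had 1828 and 1987 cpm in Brain-NSC and 0 to 0.31 cpm in the other 6 libraries. The Y-linked genes *Ddx3y*, *Eif2s3y*, *Kdm5d* and *Uty* had no counts in Brain-NSC and 37.8 to 87.0 cpm in each of the others, at least 255-fold higher. These values separate all Brain-NSC libraries from all others, so that the sex of the cells moved with every comparison against Brain-NSC and is equal, by these genes, in Wnt1Cre-mTmG and Sox2-GFP brain NSCs. *Kdm5c*, which escapes X inactivation, was at 319 ± 6.97 cpm in Brain-NSC and at 199.6 ± 2.84 and 214 ± 4.37 in the others, while the 479 tested genes of the X chromosome had medians of 0.04 and 0.08 against Brain-NSC.

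Chromosome 1 stood out in the same 2 comparisons. Its 816 tested genes had a median log2 fold change of -0.35 in Wnt1Cre-mTmG brain NSCs against Brain-NSC, with 620 of them negative, and of -0.32 in Sox2-GFP brain NSCs against Brain-NSC, with 570 negative. In Wnt1Cre-mTmG against Sox2-GFP brain NSCs the median was -0.02. The other 18 autosomes had medians between -0.02 and 0.05, between -0.09 and 0.10, and between -0.05 and 0.06 in the 3 comparisons. In 5 equal stretches along the chromosome the medians ran from -0.312 to -0.391 in Wnt1Cre-mTmG brain NSCs and from -0.295 to -0.365 in Sox2-GFP brain NSCs, so that the shift spanned its whole length. Relative to the median of all 8 NSC and pNSC groups, chromosome 1 lay at 0.27 and 0.25 in the 2 Brain-NSC libraries and at 0.37 and 0.35 in the 2 Lung-pNSC libraries of the same experiment, but between -0.11 and -0.03 in the other 17, Tail-pNSC included. *Atf3*, *En1*, *Glul*, *Mcm3*, *Pax3* and *Wdfy1*, named here, lie on this chromosome. Copy number was not measured.

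**Figure D4:**
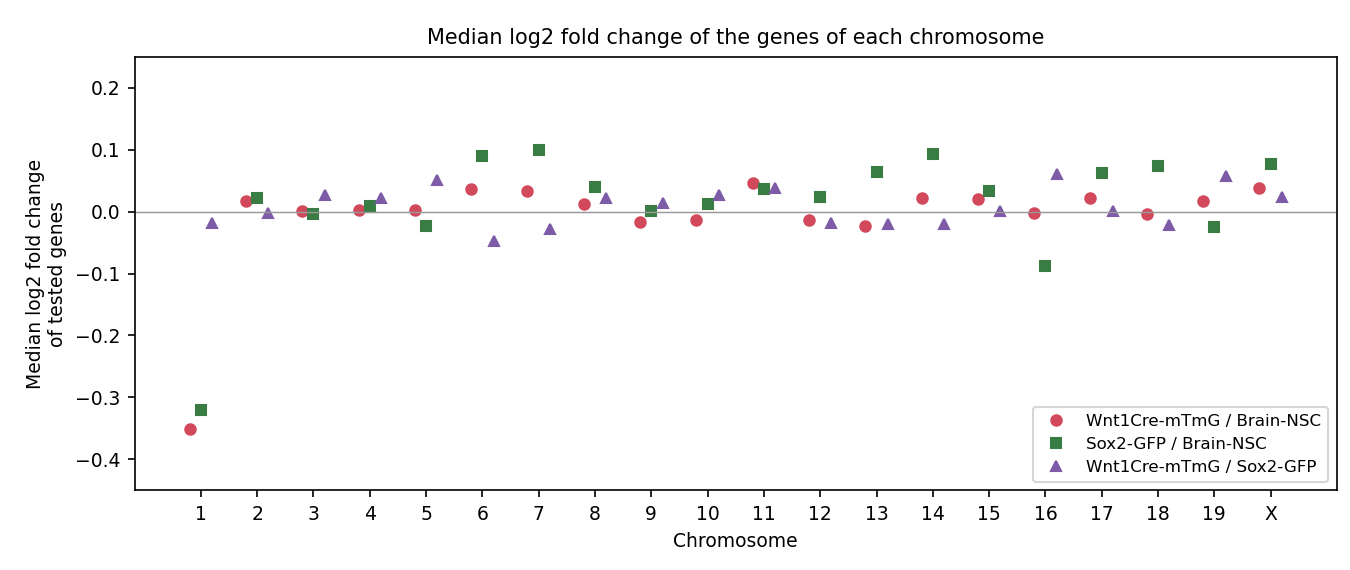
Median log2 fold change (vertical axis) of the tested genes of each autosome and the X chromosome, in the 3 pairwise comparisons. Chromosome 1 lies at -0.35 and -0.32 in the 2 comparisons with Brain-NSC and at -0.02 between the other 2 groups, while no other autosome leaves the range from -0.09 to 0.10.

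Genes known to vary between mouse strains were unequal too. *Nnt*, a mitochondrial transhydrogenase that is partly deleted in C57BL/6J mice, had 77.6 and 75.2 cpm in Brain-NSC, 89.9, 84.9 and 86.8 in Wnt1Cre-mTmG brain NSCs and 26.5, 28.6 and 26.4 in Sox2-GFP brain NSCs. *Glo1*, a glyoxalase gene duplicated in some strains, had 157 and 151, then 319, 307 and 305, and then 112, 109 and 109 cpm. *Wdfy1*, another strain-variable gene (on chromosome 1), had 25.8 and 24.3, then 71.0, 68.1 and 67.1, and then 16.6, 16.1 and 16.5 cpm. Each of the 3 genes differed between Wnt1Cre-mTmG and Sox2-GFP brain NSCs by a call.

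Among the genes with the largest changes, several were at or near 0 in one group and well expressed in another. In Brain-NSC *Phyh*, a peroxisomal enzyme of phytanic acid breakdown, and *Anxa3*, an annexin, had no counts. *Phyh* had 13.4, 13.1 and 13.0 cpm in Wnt1Cre-mTmG and 20.2, 20.1 and 22.0 in Sox2-GFP brain NSCs, at least 87.1-fold and 137-fold higher, and *Anxa3* had 35.1, 33.0 and 28.8 cpm in Wnt1Cre-mTmG brain NSCs, at least 214-fold higher, but 0.12 to 0.23 in Sox2-GFP brain NSCs. The membrane raft gene *Flot2* had 3 and 0 counts in Brain-NSC and 45.6 to 60.3 cpm elsewhere. *Rab3b*, a GTPase of secretory vesicles, was at 241 and 248 cpm in Brain-NSC, at 1.75, 2.40 and 2.53 in Wnt1Cre-mTmG brain NSCs and at 15.1, 14.8 and 15.8 in Sox2-GFP brain NSCs. Sox2-GFP brain NSCs had low *Akap12*, a kinase anchoring protein (13.7, 13.5 and 14.6 cpm against 352 and 359 in Brain-NSC and 529, 526 and 533 in Wnt1Cre-mTmG brain NSCs), and high *Il33*, a cytokine of glia (131, 135 and 132 cpm against 5.29 and 5.15, and 3.41, 4.00 and 3.40). The secreted glycoprotein gene *Spp1*, osteopontin, had 25.6, 24.1 and 25.4 cpm in Wnt1Cre-mTmG brain NSCs and at most 1.29 cpm elsewhere.

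By the same rule of size, *AC122119.2*, *AI506816*, *Rpl23a* and *Cd93* fell from Brain-NSC, *Vcp-rs* and *Nptx2* were low in Sox2-GFP brain NSCs, *Tpm3-rs7*, *Trib3* and *Igf2bp3* were high in them, and *AC165951.1* and *BC002163* were highest in Wnt1Cre-mTmG brain NSCs. *Rpl23a*, *Vcp-rs* and *Tpm3-rs7* have near-identical copies in the genome, so that their counts are uncertain. *Igf2bp3*, an RNA-binding protein of fetal cells, had 35.9, 32.4 and 32.6 cpm in Sox2-GFP brain NSCs and at most 1.34 cpm in any other library. *Nr2f2*, a nuclear receptor of early progenitors, had 46.9, 45.1 and 42.3 cpm there, against 3.75 and 4.31 in Brain-NSC and 5.90, 6.01 and 6.45 in Wnt1Cre-mTmG brain NSCs.

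The 3 brain groups were farther from each other than from 4 of the 5 pNSC groups of their own experiments. Euclidean distances over 17393 genes, on quantile-normalised log2(count + 1) values, were 54.6 to 76.1 between replicates of a brain group, 143 to 145 between Brain-NSC and Wnt1Cre-mTmG brain NSCs, 153 to 156 between Brain-NSC and Sox2-GFP brain NSCs, and 136 to 139 between the last 2. Brain-NSC lay 117 to 120.1 from the Lung-pNSC and 129 to 131 from the Tail-pNSC of their own experiment. Sox2-GFP brain NSCs lay 124 to 127 from their lung pNSCs, and Wnt1Cre-mTmG brain NSCs 128.5 to 132 from DRG pNSCs but 151 to 154 from tail pNSCs. The DRG pNSCs were about as shallowly sequenced as these brain NSCs, with 9808246 to 11431445 counts per library. The tail pNSCs had 19648349 to 22548268, and the part of depth in these distances was not tested. Brain-NSC lay as near to the Sox2-GFP lung pNSCs of another experiment, at 129 to 131, as to their own Tail-pNSC. Wnt1Cre-mTmG brain NSCs lay 136 to 140 from these lung pNSCs, about as far as from Sox2-GFP brain NSCs. The other pNSC groups of other experiments lay 138 to 177 from the brain groups. For each of the 8 brain libraries the nearest library outside its own group was a pNSC of its own experiment, never a brain NSC of another, also on TMM log2(cpm + 1) values and over the 11796 genes with a mean of at least 100 counts. The paper states that brain NSCs mostly came from the same mice as the pNSCs they were controls for. Mice, genetic background and batch may thus be shared within an experiment, and their part in these distances was not tested.

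**Figure D5:**
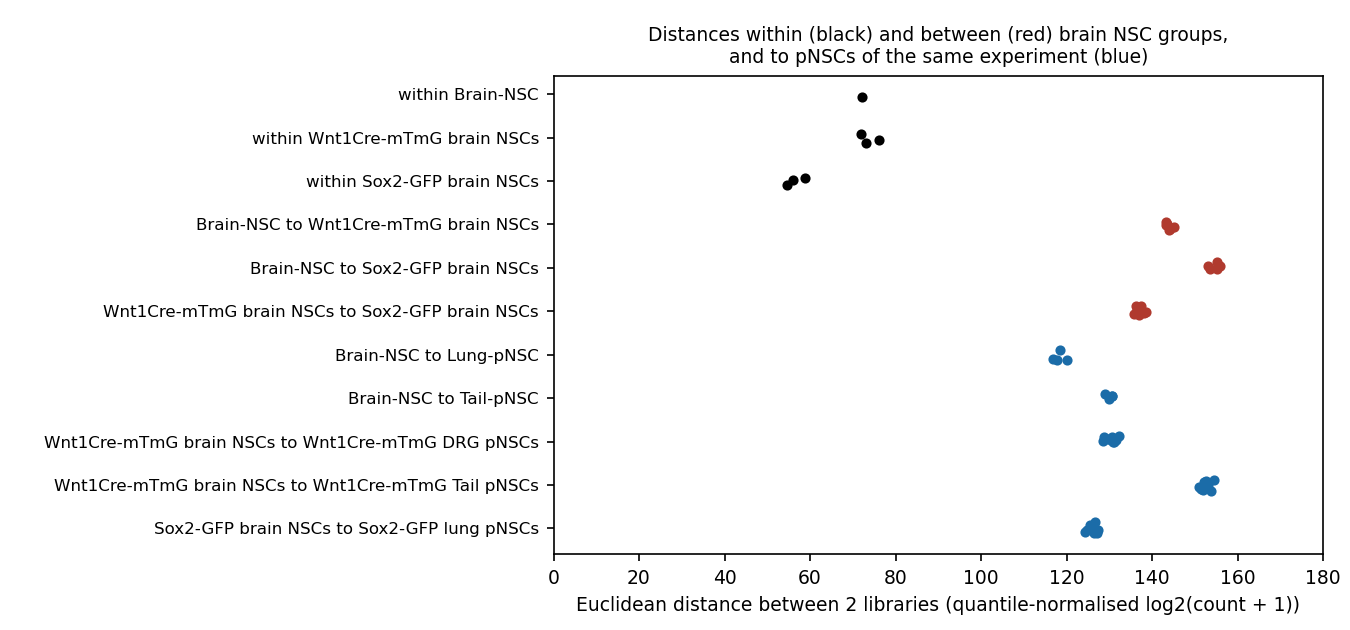
Euclidean distance between 2 libraries (horizontal axis) within brain NSC groups (black), between brain NSC groups (red) and from brain NSCs to pNSCs of the same experiment (blue); each point is a pair of libraries. Distances between brain groups (136 to 156) exceed those to the pNSCs of the same experiment (117 to 132), other than Wnt1Cre-mTmG tail pNSCs (151 to 154).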

How the data were processed

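Whole-gene read counts of 28 libraries were analysed, 8 of them brain NSCs. The authors sequenced polyA RNA with single-end reads and deposited the counts per gene, unnormalised, and the submitters' processing notes name HISAT2, Cufflinks, HTSeq and GRCm38. Whether counting used strand is not given in the sources used here, so that reads of genes overlapping on opposite strands cannot be told apart. All 28 count columns were mapped to labelled samples. The members, gene lists and tests were chosen with earlier results of these data known.

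Genes were kept by edgeR's filterByExpr (minimum count 10, minimum total 15), which left 13811 of 28244, scaled by TMM, and tested with the quasi-likelihood F test and Benjamini-Hochberg adjustment in a fit of the 8 libraries by group (R 4.3.3, edgeR 4.0.16, limma 3.58.1, DESeq2 1.42.0). The text names list genes called in a comparison, NSC and sex-linked genes and markers of other cell types, and, for each comparison, the 6 largest rises and 6 largest falls among called genes with a mean of at least 10 cpm, no overlap between libraries and no predicted-gene symbol. *Nr2f2*, *Cdkn2b* and the other genes described come from the lists. Levels of a gene are not divided by its length and were compared between groups, not between genes. Coordinates are those of GENCODE M21 on GRCm38, matched by symbol for 27841 genes. Promoter sequences are from RefSeq. Tables and figures were made in Python 3.11.15 with numpy 2.4.6, pandas 2.3.3 and matplotlib 3.10.9.

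On simulated counts for 13587 genes, the fit recovered 99 or 100 of 100 genes changed 2-fold, and 100 of 100 changed 4-fold, between Wnt1Cre-mTmG brain NSCs and each other group. False calls numbered 4 against Brain-NSC and 12 against Sox2-GFP brain NSCs. All simulated libraries had the same spread, so that the wider spread between the Brain-NSC libraries was not covered. Same-numbered libraries of different groups did not deviate together (see the effect of the processing), so that replicate numbers were taken as names only. Alternatives covered the test, scaling, filter, libraries in the fit, threshold, depth, replicate block and leaving out each library. Some genes of the lists are counted in them but not reported here by name.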

Additional observations from a re-analysis of the deposited data

How the results depend on the processing

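Of 4147 alternative values for 273 log2 fold changes of named genes, 4115 kept their direction and side of the limits, 17 lost and 15 gained a call, and none reversed. Of 1323 alternative counts for lists, 1175 stayed within 1.5 times. Without a fold limit the called genes were 8613 between Wnt1Cre-mTmG brain NSCs and Brain-NSC, 10724 between Sox2-GFP brain NSCs and Brain-NSC, 10260 between Wnt1Cre-mTmG and Sox2-GFP brain NSCs and 12247 among the 3 groups. Over genes with a mean of at least 100 counts, where fewer genes are tested, they were 624, 1417, 1118 and 1866. Testing against the fold limit itself (glmTreat) gave 1189 for the first comparison and 1575 for the third. Fits of only the 2 groups compared gave 1615, 2857 and 2157. Leaving out each library gave 1828 to 1980, 2836 to 3013, 2334 to 2367 and 3843 to 4120. Where this left Brain-NSC with 1 library, that library is assumed to vary like the other groups. Likeness of group means, in the order of the 3 comparisons, was 0.975, 0.963 and 0.97 by Spearman's rho, 0.978, 0.964 and 0.972 on TMM values, 0.977, 0.973 and 0.98 over all genes with a count, and 0.964 to 0.966, 0.956 to 0.958 and 0.968 to 0.969 without single libraries.

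The chromosome 1 median was -0.367 and -0.335 with the stricter filter and -0.31 and -0.271 with upper-quartile scaling, for Wnt1Cre-mTmG and Sox2-GFP brain NSCs against Brain-NSC. Without single libraries, an alternative chosen after seeing the data, it ran from -0.366 to -0.345 and from -0.33 to -0.305. Without genes of chromosomes 1, X and Y, also added after seeing the data, 1716, 2603, 2146 and 3494 genes were called. In Wnt1Cre-mTmG brain NSCs against Brain-NSC, *Glo1* lost its call without Brain-NSC replicate 2 (0.963) and without Wnt1Cre-mTmG replicate 1 (0.99), *Irx1* without Brain-NSC replicate 1 (0.96) and *Trib3* without Wnt1Cre-mTmG replicate 2 (-0.72). In the fit of 28 libraries 10 imprinted genes were called there, against 6. At equal depth 6 interferon and MHC genes were called in Sox2-GFP brain NSCs against Brain-NSC, against 10. The cause of these shifts was not tested. Depth limits genes of a few counts, mostly in Wnt1Cre-mTmG brain NSCs.

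Same-numbered libraries correlated at -0.0149 to 0.0464 in their deviations from the group means, so that the numbers do not pair them. With the replicate block 1898, 2901, 2401 and 3923 genes were called.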

Other observations

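Neuronal genes moved in both directions. Of 24 tested, 5 were higher and 4 lower in Wnt1Cre-mTmG brain NSCs than in Brain-NSC (median log2 fold change 0.18), and 4 were higher and 5 lower in Sox2-GFP brain NSCs than in Brain-NSC (median -0.18). Both shares were 37.5%, against 14.0% and 21.0% of all tested genes. *Dcx*, a microtubule protein of migrating neuroblasts, had 9.09 and 7.33 cpm in Brain-NSC, 9.86, 10.0 and 10.0 in Wnt1Cre-mTmG brain NSCs and 39.6, 41.3 and 37.4 in Sox2-GFP brain NSCs, and was highest there without overlap. Of 24 genes of Notch signalling, 6 were higher and 1 lower in Sox2-GFP brain NSCs than in Brain-NSC (29.2%, against 21.0% of all tested genes), the ligand gene *Dll3* with 120 to 121 cpm against 22.3 and 23.4. Of 26 interferon and MHC class I genes, 9 were higher and 1 lower in Wnt1Cre-mTmG brain NSCs than in Brain-NSC (median 0.55). That was 38.5%, against 14.0% of all tested genes. *H2-K1*, a class I heavy chain, had 14.8 and 15.4 cpm in Brain-NSC, 49.0, 47.6 and 50.5 in Wnt1Cre-mTmG brain NSCs and 20.4, 19.2 and 21.3 in Sox2-GFP brain NSCs.

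Among 23 imprinted genes, *Mest* fell in steps from 1043 and 1017 cpm in Brain-NSC to 514, 523 and 525 in Wnt1Cre-mTmG brain NSCs and 101, 106 and 104 in Sox2-GFP brain NSCs. *Peg10*, another paternally expressed gene, had 225 and 220 cpm in Brain-NSC and 75.3 to 88.3 in the other 6 libraries. Of 42 genes of positional receptors and matrix, 14 were higher and 4 lower in Wnt1Cre-mTmG brain NSCs than in Brain-NSC. This was a share of 42.9%, against 14.0% of all tested genes. *Mmp14*, a membrane-bound matrix protease, had 3.13 and 2.33 cpm in Brain-NSC, 110, 105 and 105 in Wnt1Cre-mTmG brain NSCs and 42.1, 41.0 and 42.8 in Sox2-GFP brain NSCs. Of 7 ependymal genes tested, 4 were lower in Sox2-GFP brain NSCs than in Brain-NSC and none higher (57.1%, against 21.0% of all tested genes). The cilia gene *Hydin* had 16.5 and 17.2 cpm in Brain-NSC and 0.58 to 2.09 in the other libraries.

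In a search made after the values were seen, 7 genes besides the Y-linked ones had at most 3 counts in each Brain-NSC library and at least 10 cpm in both other groups. They were *Cav1*, *Flot2*, *Mxra7*, *Phyh*, *Rps15a-ps8*, *Tox2* and *Zfp711*. No gene was off in this way in Wnt1Cre-mTmG or in Sox2-GFP brain NSCs alone. *Cav1*, the main protein of caveolae, had 6 counts in both Brain-NSC libraries together, 9.81 to 12.3 cpm in Wnt1Cre-mTmG brain NSCs and 23.7 to 27.5 in Sox2-GFP brain NSCs.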
